A study of Mus musculus with 4 samples.

Results

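Vip interneurons of the hippocampus were drawn from single-nucleus RNA counts by their transcripts. A nucleus was a member if its barcode held at least 5000 UMIs (unique molecular identifiers, each standing for 1 captured RNA molecule), at least 3 of Gad1 and Gad2 together, at least 2 of Vip and at least 3 of Adarb2, with at most 1 each of Sst, Lamp5 and Slc17a7. Of 32572 barcodes with at least 5000 UMIs in 4 libraries, 143 met the rule. Hippocampi of adult mice were used, and both groups carried Kat6a alleles flanked by loxP sites. The Control group (Kat6a-f/f) had no Cre, and the Kat6a-cKO group carried NEX-cre besides Kat6a-f/f. The NEX-cre driver expresses Cre from the Neurod6 locus, which excitatory forebrain neurons use, so inhibitory neurons such as these are not the cells in which it is meant to delete Kat6a. Each group had 2 libraries; the labels do not say that these came from separate animals, so p-values measure only the spread between these libraries, which may be technical.

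Vip interneurons release GABA together with vasoactive intestinal peptide, and many of them contact other interneurons, so that their firing can release pyramidal cells from inhibition. They arise from the caudal ganglionic eminence (CGE), unlike Sst and Pvalb interneurons, which arise from the medial ganglionic eminence (MGE). Hippocampal Vip cells are usually divided into Calb2 cells that target interneurons and Cck basket cells that target pyramidal cell bodies. Kat6a encodes a histone acetyltransferase of the MYST family, and Rspo2, named in the title of the series, encodes a secreted R-spondin that amplifies Wnt signals.

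The Control libraries gave 36 and 40 Vip nuclei and the Kat6a-cKO libraries 39 and 28. Throughout, values are in the order Control 1, Control 2, Kat6a-cKO 1, Kat6a-cKO 2. Their summed counts were 540523, 580127, 458815 and 357420. The median UMIs per Vip nucleus were 13746, 13680, 10941 and 11417, lower in both Kat6a-cKO libraries, as they were in the other inhibitory nuclei (17192, 17488, 15624 and 16278). The difference of -2534 UMIs gave p = 0.3333 by a two-sided exact permutation test, the smallest p that 2 libraries against 2 allow. After each Vip nucleus was thinned to 5000 UMIs, the median number of genes detected was 2128, 2176, 2122 and 2172, and the groups overlapped. No barcode of a Vip nucleus occurred as a Vip nucleus in another library, whereas 15 to 20 of the barcodes with at least 5000 UMIs were shared by each pair of libraries. Scrublet called 1 of the 143 nuclei a doublet.

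The label was checked against markers that the rule did not use. As the rule demands, Vip was high in the members, at 697, 633, 588 and 943 CPM (counts scaled to a common total, the usual CPM unit), against 3.89, 4.16, 3.4 and 3.19 CPM in the other inhibitory nuclei. These other inhibitory nuclei are the 2159 nuclei that met the same limits on UMIs, Gad1 and Gad2, and Slc17a7 but were not members. Adarb2, an RNA-editing family gene that marks CGE interneurons, is part of the rule as well, and its lowest count in a member was 29 UMIs, with a median of 147. Of the genes outside the rule, the transcription factor Prox1, another CGE marker, stood at 209, 174, 194 and 207 CPM against 44.3, 39.4, 34.1 and 37.2. For other CGE genes, nuclei with a UMI were counted after thinning to a common depth. Nr2f2 was found in 19.4%, 20%, 10.3% and 35.7% of members against 10.8%, 15.1%, 13.1% and 11.8%, so lower in Kat6a-cKO 1. Npas1 was found in 19.4%, 22.5%, 20.5% and 32.1% against 9.64%, 7.94%, 10.4% and 9.21%. Htr3a was found in 8.33%, 0%, 0% and 0% against 1.2%, 0.611%, 0.957% and 0.737%, so higher only in Control 1. The list of 10 MGE genes includes Sst, which the rule limits to 1 UMI in members, so part of its gap was set by the selection. The 10 genes summed to 1943, 1503, 1822 and 2003 CPM in members, against 5844, 5565, 5740 and 5537 in the other inhibitory nuclei. Most of the sum in members was the potassium channel gene Kcnc2, at 1876, 1401, 1763 and 1631 CPM and with a UMI in 89.3% to 97.4% of the members. The other 9, a split made after seeing the data, still include Sst. They summed to 66.6, 102, 58.8 and 372 CPM against 3378, 3260, 3141 and 3068, and 336 of the last value in Vip nuclei was Nxph1. Among the 9, Nkx2-1 had no count, and Lhx6 had a UMI in 1 of the 143 nuclei against 28.9, 27.4, 30.5 and 25.2 CPM.

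The Vip threshold is the criterion that sets the edge of the class. Members with exactly 2 Vip UMIs numbered 3, 4, 6 and 2, and nuclei that met everything else with 1 Vip UMI numbered 9, 6, 16 and 6. In all, 173, 182, 248 and 224 nuclei failed only on Vip, while at most 24 in a library failed only on Gad1 and Gad2 and at most 7 only on Slc17a7. Of the marker lists of other cells, some were near 0 in the members: the endothelial Cldn5 and the choroid plexus genes Folr1 and Clic6 had no count, and the 4 genes of the oligodendrocyte precursor list summed to 14.8, 15.5, 10.9 and 5.6 CPM. Others were not. The 8 excitatory markers summed to 2794, 2627, 2820 and 2515 CPM, against 3205, 3211, 3001 and 2962 in excitatory nuclei, of which Grin2b, an NMDA receptor gene that many neurons express, gave 2219 to 2517, while the defining Slc17a7 was at 13, 13.8, 15.3 and 8.39 by the rule. The 5 dentate granule markers summed to 259, 195, 214 and 249 CPM, against 147, 149, 99.5 and 111 in excitatory nuclei, and Prox1, which is also a CGE marker, gave 209, 174, 194 and 207 of this. The 6 astrocyte markers summed to 241, 226, 338 and 266 CPM, against 144, 109, 139 and 155 in the other inhibitory nuclei, with 216, 203, 312 and 243 from the glutamate transporter gene Slc1a2. The 5 oligodendrocyte markers (174, 72.4, 107 and 58.8 CPM) and the 5 microglia markers (130, 186, 131 and 129) were near their sums in the other inhibitory nuclei (113, 86.8, 83.6 and 95.3, and 127, 144, 121 and 109). Their part in the results was not tested. Excitatory neurons (9229 nuclei) gave the level of Vip background: 0.223%, 0.167%, 0.0994% and 0.0387% of them held at least 2 Vip UMIs.

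Single members stood apart in their counts of a few genes. One nucleus of Kat6a-cKO 2 held 2 Vip, 114 Nxph1, 127 Reln and 35 Gad2 UMIs, and one nucleus of Control 2 held 4 Vip and 32 Nxph1 UMIs. Nxph1, a neurexophilin gene that is high in MGE and Lamp5 interneurons, stayed under 10 UMIs in every other member. Another 2 nuclei of Control 2, with 2 and 4 Vip UMIs, held 64 and 76 Ntng1 and 158 and 113 Col25a1 UMIs, and a nucleus of Control 1 with 9 Vip UMIs held 72 of Reln and 37 of Adarb2. The 2 nuclei rich in Nxph1 lie at or near the Vip minimum, and the genotype results were also computed without them, but not without the other 3. Gad1 was at 133 CPM in Kat6a-cKO 2 without its outlying nucleus, against 173 with it, and Npy at 2.96 against 14.

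As a share of inhibitory nuclei, Vip nuclei made up 6.74% (95% Wilson interval 4.91 to 9.19), 7.53% (5.58 to 10.1), 5.86% (4.31 to 7.91) and 4.9% (3.41 to 7.0). The inhibitory nuclei numbered 534, 531, 666 and 571, and Kat6a-cKO 1 held more Vip nuclei than Control 1 (39 against 36). Each Kat6a-cKO library had a lower share than each Control library, by -1.76 percentage points on average. The difference was -1.68 points from nuclei of at least 8000 UMIs, -1.82 with at least 4 Vip UMIs and -1.60 without called doublets. With Sst, Lamp5 and Slc17a7 required at 0 UMIs the shares were 4.12%, 4.33%, 4.05% and 3.68%, a difference of -0.36 points. The counting intervals overlap, and the two-sided exact permutation test gave p = 0.3333 in each of these cases, which 2 libraries against 2 cannot go below. Of all barcodes with at least 5000 UMIs the shares were 0.436%, 0.502%, 0.462% and 0.354%, which overlap between groups (exact permutation p = 0.667). A nucleus with fewer UMIs is less likely to reach 2 Vip UMIs, and the depth was lower in Kat6a-cKO as given above; its part in the share was not tested.

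The genes that set the Vip nuclei apart from the other inhibitory nuclei describe the class and carry no test, since the nuclei were chosen by their own counts. Among genes outside the rule with a mean of at least 20 CPM, Rspo2 had the largest ratio. Its level was 337, 243, 294 and 257 CPM in Vip nuclei and 18.6, 15.1, 20 and 17 CPM in the other inhibitory nuclei, which is 11.9 to 14.5 times higher with 5 CPM added to both. The 493 Sst nuclei (at least 2 Sst UMIs) stood at 27.6, 17.5, 24.7 and 17.1 CPM and the 190 Lamp5 nuclei at 12.6, 7.46, 4.46 and 10.5 CPM. Excitatory nuclei, at 84.1, 63.6, 63.4 and 51.6 CPM, came between Vip and the other inhibitory classes in every library. In order of these class averages, Vip nuclei were first and excitatory nuclei second with no overlap. Sst nuclei overlapped with the other inhibitory nuclei as a whole, and Lamp5 nuclei were lowest. Excitatory nuclei were not divided by type, so this order does not compare Vip nuclei with single excitatory types.

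**Figure D1:**
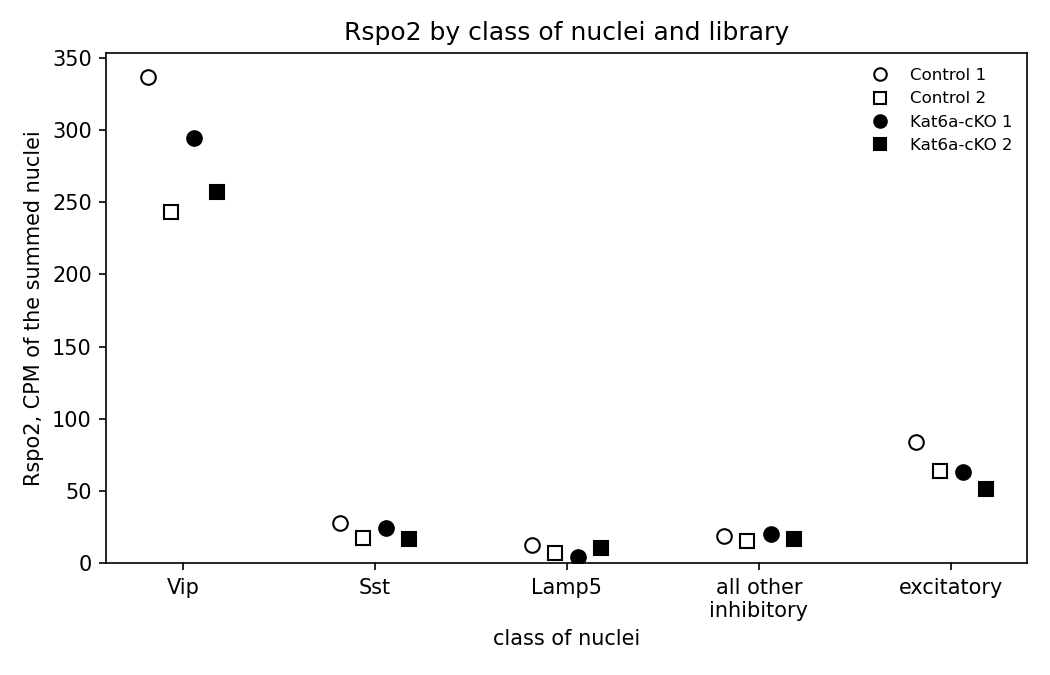
Rspo2 in CPM of the summed nuclei (y axis) in each class of nuclei (x axis), with 1 point per library, open for Control and filled for Kat6a-cKO, circles for replicate 1 and squares for replicate 2. The 4 Vip values lie between 243 and 337 CPM, above every value of the other classes, and the Control and Kat6a-cKO points of the Vip nuclei interleave.

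Rspo2 transcripts were spread over many Vip nuclei rather than a few. A UMI was found in 63.9%, 60.0%, 76.9% and 67.9% of them, and the 3 richest nuclei held 35.2%, 31.2%, 24.4% and 41.3% of the UMIs. At a common depth of 5000 UMIs the shares were 50.0%, 45%, 59.0% and 42.9%, against 10.1%, 6.72%, 6.38% and 7.02% of Sst nuclei and 18.4%, 15.8%, 13.6% and 10.6% of excitatory nuclei. Although Vip nuclei were 4.9% to 7.53% of inhibitory nuclei, they carried 51.4%, 50.5%, 38.9% and 36.5% of all Rspo2 counts in inhibitory nuclei. The far more numerous excitatory nuclei held 4145, 3131, 2690 and 2722 counts against 182, 141, 135 and 92 in Vip nuclei. In GENCODE M21 (GRCm38) the gene lies on chromosome 15, 43020794 to 43170826, on the minus strand.

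The leading 15 genes also held Wnt5b, Sema5b, Angpt1, Cbln2 and Fbln2. Wnt5b, a Wnt ligand usually assigned to the non-canonical branch, stood at 307, 262, 294 and 305 CPM against 43.5, 34.6, 40.5 and 43, a ratio of 6.43 to 6.74 that hardly varied between libraries. Sema5b, a transmembrane semaphorin that guides axons, was at 178, 134, 159 and 179 CPM against 12, 8.98, 10.6 and 10.3. Angpt1, the ligand of the TIE2 receptor, was at 99.9, 141, 153 and 190 CPM against 12.8, 10.1, 12.5 and 13.4. The synaptic organizer gene Cbln2 was 5.0 to 9.16 times higher, and Fbln2, an extracellular matrix protein, 5.73 to 9.54 times. The summed Vip nuclei thus held transcripts of both an R-spondin and a Wnt ligand, each above its level in the other inhibitory nuclei in all 4 libraries.

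Adra1b, Egfr, Grpr and Sorcs3, which encode receptors, were among the leading 15 too. Adra1b, the alpha-1B adrenergic receptor, was at 215, 240, 248 and 255 CPM against 28.2, 23.3, 30.9 and 34.9, and at 19.1, 15.3, 24.7 and 22.1 in Sst nuclei. Egfr, a receptor tyrosine kinase of the ErbB family, was at 422, 321, 410 and 361 CPM against 65.8, 69.1, 78 and 70.7. Grpr, the receptor for gastrin-releasing peptide, was at 51.8, 63.8, 28.3 and 64.4 CPM, while its ligand gene Grp had no count in any Vip nucleus. Sorcs3, a sorting receptor of the sortilin family, stood at 2068, 2191, 2288 and 2305 CPM against 295, 357, 392.3 and 369. The remaining genes of the leading 15 were the sialyltransferase gene St3gal1 (7.32 to 11.5 times), Ostf1 (5.99 to 7.68), the ceruloplasmin gene Cp (5.61 to 7.58), the actin-binding supervillin gene Svil (4.67 to 6.05) and the transcript Gm39185 (4.28 to 5.53).

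**Figure D2:**
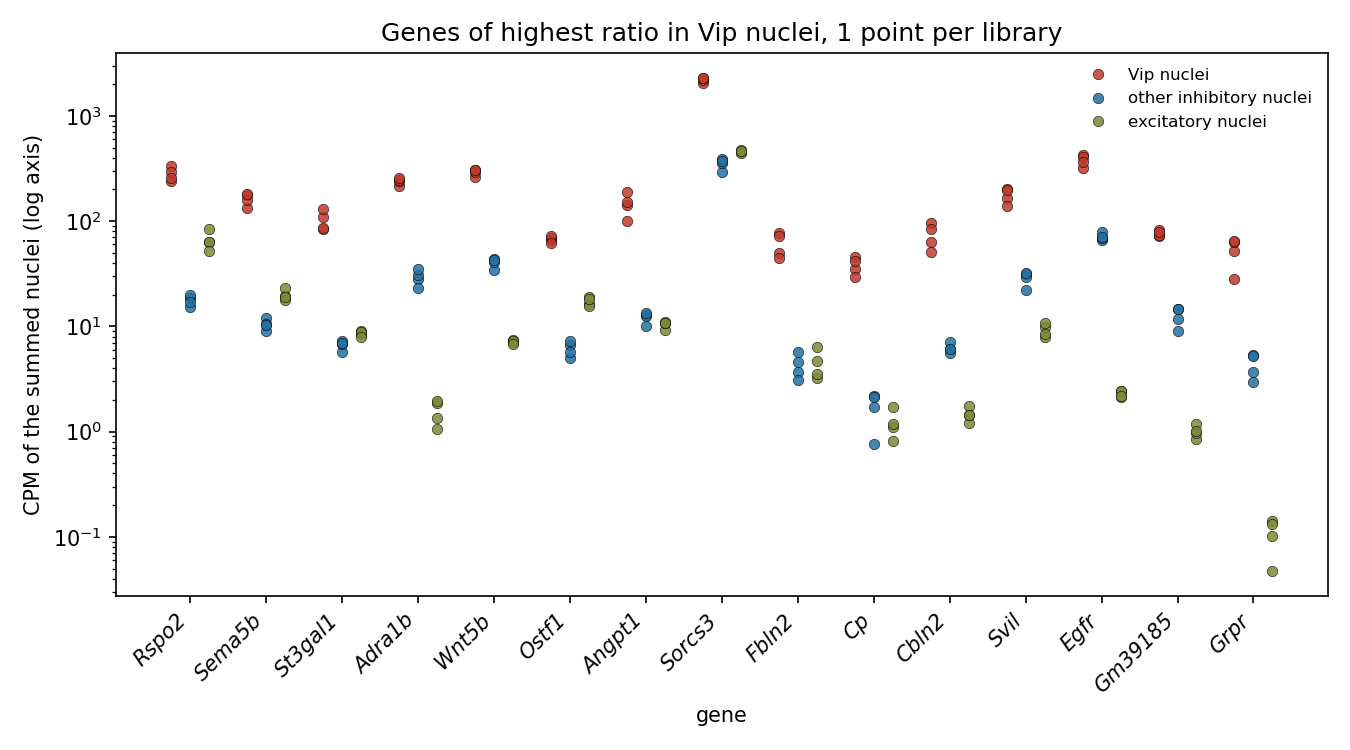
The 15 genes outside the rule with the highest ratio of Vip over other inhibitory nuclei (x axis), in CPM of the summed nuclei on a log axis (y axis), with 1 point per library in Vip (red), other inhibitory (blue) and excitatory (green) nuclei. For each gene all 4 red points lie above all blue points, as the choice of genes requires, and for Rspo2 the green points lie between 51.6 and 84.1 CPM.

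The 8 lowest ratios were those of Sox6, Chrm2, Moxd1, Nxph1, Tox3, Mctp2, Tmem132d and Slit2. Sox6, a transcription factor of the MGE lineage, was at 3.7, 1.72, 6.54 and 5.6 CPM against 297, 261, 296 and 286 in the other inhibitory nuclei. Chrm2, the M2 muscarinic receptor, was at 1.85, 12.1, 2.18 and 2.8 CPM against 171, 206, 169 and 146. Moxd1 had no count in 143 nuclei, against 31.9 to 41.6 CPM. Nxph1 was at 9.25, 70.7, 4.36 and 336 CPM against 2655, 2588, 2472 and 2384, and its high values are in the libraries of the 2 nuclei rich in it.

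Lists of channels and receptors were summed to compare Vip with the other inhibitory nuclei. The 29 potassium channel genes summed to 24850, 23140, 24790 and 20010 CPM in Vip nuclei against 14724, 13968, 14781 and 14206. This gap was that of 1 gene, Kcnip4: the other 28, a split made after seeing the data, summed to 12791, 12028, 12450 and 12168 CPM against 12134, 11721, 12640 and 12103, lower in Kat6a-cKO 1. The 24 calcium, sodium and HCN channel genes were lower, at 6941, 7121, 6534 and 6659 CPM against 8376, 8161, 8316 and 8229, as were the 14 GABA-A receptor subunits, at 4616, 4227, 3984 and 4160 against 5010, 4830, 4944 and 4681. The 24 glutamate receptor genes were higher in 3 libraries and lower in Control 2, at 21313, 18415, 21285 and 18659 CPM against 19354, 19726, 19626 and 18512. Kcnip4, which encodes a protein that modulates A-type potassium channels, was at 12059, 11111, 12340 and 7842 CPM against 2590, 2247, 2141 and 2102. Grm7, a presynaptic metabotropic glutamate receptor, was 2.32 to 3.61 times higher than in the other inhibitory nuclei, and the kainate receptor gene Grik2 1.49 to 1.78 times. The serotonin receptor gene Htr2c was at 272, 517, 272 and 512 CPM against 97.9, 77, 111 and 99.6, with Control 2 and Kat6a-cKO 2 high in Vip nuclei. The 3 richest nuclei held 65.3%, 58.3%, 42.4% and 60.1% of these UMIs, and the share of nuclei with a UMI (36.1%, 40.0%, 46.2% and 50.0%) did not have that order. Chrm3, the M3 muscarinic receptor, was 1.59 to 2.15 times higher, so that M3 and M2 lay on opposite sides of the other inhibitory nuclei. Cnr1, the CB1 cannabinoid receptor of Cck basket cells, was at 1190, 1219, 822 and 1072 CPM against 370, 486, 378 and 541. Of the receptors for VIP itself, Vipr2 had no count and Vipr1 was at 7.4, 6.9, 2.18 and 5.6 CPM, while Adcyap1r1, the receptor for the related peptide PACAP, was at 92.5, 91.4, 71.9 and 89.5 CPM against 105, 106, 97.7 and 105.

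Among themselves the Vip nuclei differed in their peptides. Penk, the enkephalin precursor, had a UMI in 38.9%, 47.5%, 25.6% and 21.4% of nuclei, and at the common depth in 25.0%, 22.5%, 17.9% and 7.14%, against 0.84% to 1.75% of Sst nuclei. Tac2, the neurokinin B precursor, had a UMI in 27.8%, 15%, 25.6% and 14.3% and, at the common depth, in 10.0% to 17.9%, where no library exceeded 0.877% of Sst nuclei. Calb2, the calretinin gene, had a UMI in 13.9%, 20.0%, 23.1% and 14.3% of nuclei, on only 6, 9, 10 and 7 UMIs. The corticotropin-releasing hormone gene Crh had a UMI in 16 of the 143 nuclei, and the acetylcholine-synthesis gene Chat in 6. The Penk, Tac2 and Calb2 shares at the common depth stood above those of Sst nuclei, apart from Calb2 at the common depth in Control 1, which was 0%.

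Cck could not be used in the same way. A UMI was found in 50%, 70%, 56.4% and 75% of Vip nuclei, but at the common depth in 22.2%, 40.0%, 28.2% and 46.4%, close to excitatory nuclei (36.0%, 47.8%, 28.2% and 35.4%) and above Sst nuclei (19.3%, 27.7%, 17.7% and 18.4%). The share of Vip nuclei with a Cck UMI is therefore not read as a count of Cck cells. Cnr1, by contrast, was found at the common depth in 91.7%, 85%, 89.7% and 78.6% of Vip nuclei against 26.1% to 33.6% of Sst nuclei.

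**Figure D3:**
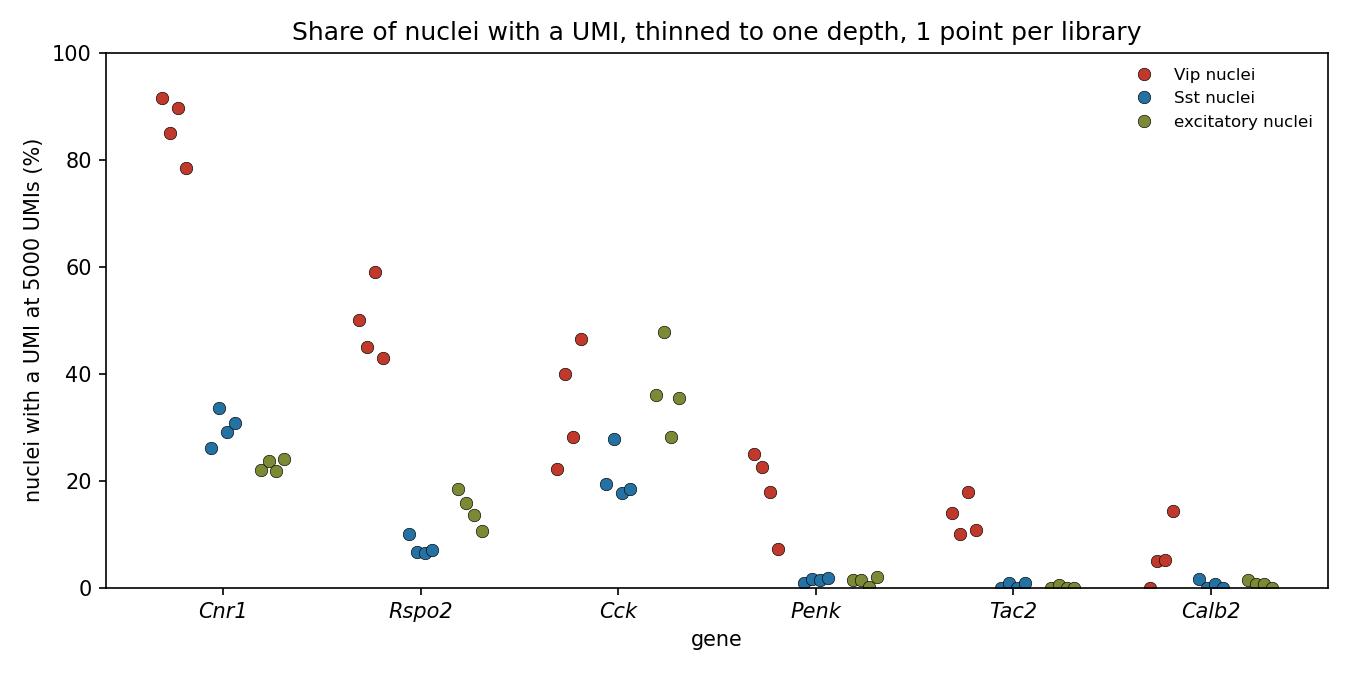
Percent of nuclei with at least 1 UMI of a gene (y axis) after every nucleus was thinned to 5000 UMIs, for 6 genes (x axis), with 1 point per library in Vip (red), Sst (blue) and excitatory (green) nuclei, in the order Control 1, Control 2, Kat6a-cKO 1 and Kat6a-cKO 2 from left to right. Cnr1, Rspo2, Penk and Tac2 lie above both other classes in every library, whereas the Cck values of Vip nuclei, from 22.2% to 46.4%, overlap those of excitatory nuclei.

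Nuclei with a Calb2 UMI and no Cck UMI (4, 3, 7 and 0) were set beside nuclei with a Cck UMI and no Calb2 UMI (17, 23, 20 and 17), as a description over the 3 libraries that held both kinds, with the limit on Cck just given. Rspo2 was the gene most raised on the Calb2 side, by 1.73, 1.91 and 1.23 on the log2 scale with 50 CPM added. It was at 631 CPM in the pooled Calb2 nuclei and 170 CPM in the pooled Cck nuclei. The Calb2 nuclei held 52, 19 and 35 Rspo2 UMIs, and in Control 2 a single nucleus held 18 of the 19. Man1a, a Golgi mannosidase gene, differed by 1.3, 1.49 and 1.02, and Grik1, a kainate receptor gene, by 0.78, 1.12 and 1.14. On the Cck side the collagen gene Col25a1 stood out with log2 differences of -3.09, -5.53 and -3.55. Also on that side were the receptor phosphatase gene Ptprm (-2.48, -3.73 and -1.94), the extracellular matrix gene Frem1 (-2.29, -2.52 and -1.77) and Kctd16, an auxiliary subunit of GABA-B receptors (-1.7, -3.85 and -2.38). The Calb2 side rests on 14 nuclei, and Kat6a-cKO 2 had none.

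Rspo2 and Col25a1 did not divide the Vip nuclei into clean classes. Of the 143, 56 held at least 2 Rspo2 UMIs and fewer than 2 of Col25a1, 16 the reverse, 22 held at least 2 of both and 49 held neither. Nuclei with Rspo2 alone were 15, 14, 17 and 10 by library, and those with Col25a1 alone 3, 7, 3 and 3. This pair was picked after the values had been seen and is given without a test. Col25a1 reached 158 UMIs in a nucleus of Control 2.

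Turning to genotype, the comparison asked which genes differ in Vip nuclei of Kat6a-cKO mice, cells that the NEX-cre driver is not meant to target. The counts of the Vip nuclei were summed per library and tested with edgeR's quasi-likelihood test, with Benjamini-Hochberg adjustment over 6183 genes. None of them passed an adjusted p of 0.05 (0%). An unadjusted p under 0.05 was reached by 307 genes (4.97%), of which 148 were higher (2.39%) and 159 lower (2.57%) in Kat6a-cKO. DESeq2 called 0 (53 at an unadjusted p under 0.05). Other settings of edgeR called more: 36 genes with the replicate block, 34 without Control replicate 1, 24 without Control replicate 2, 19 with no filter on low counts, 2 without called doublets and 1 without Kat6a-cKO replicate 1. Without the 2 nuclei rich in Nxph1, 4 genes passed in edgeR: Creb5 and Fbn2 were higher (adjusted p = 0.0131 for both), and Nrg1 (0.0307) and Reln (0.0191) lower. The Reln call exists only because of that exclusion: the nucleus left out of Kat6a-cKO 2 held 127 of the library's 136 Reln UMIs, while a nucleus with 72 of the 93 of Control 1 stayed in. With all nuclei Reln was at 172, 84.5, 39.2 and 381 CPM, highest in Kat6a-cKO 2.

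No difference was detected in the targeted gene. Kat6a was at 82.7, 82.9, 72.8 and 83.9 CPM after TMM scaling, on 42, 46, 31 and 29 counts, and its log2 fold change of Kat6a-cKO over Control was -0.09 ± 0.26 (SE; edgeR adjusted p = 0.994). It was -0.38 with at least 4 Vip UMIs and -0.37 with Sst, Lamp5 and Slc17a7 at 0 UMIs, and did not pass in either. The groups overlap. Counts are per whole gene, so a deletion of part of Kat6a could leave them unchanged. In excitatory nuclei, which the driver is meant to target, a Kat6a UMI was found at the common depth in 30%, 30.2%, 29% and 29%. The Cre transcript had 0 counts in the Vip nuclei of all 4 libraries, which allows up to 3 counts in each. Excitatory nuclei held a Cre UMI at the common depth in only 0%, 0%, 1.2% and 0.4%. With 39 and 28 Vip nuclei in the Kat6a-cKO libraries, the 0 counts thus cannot show that Cre was absent. Neurod6, the locus of NEX-cre, was at 9.25, 15.5, 10.9 and 22.4 CPM. At the common depth a Neurod6 UMI was found in 8.33%, 10%, 10.3% and 10.7% of Vip nuclei. The shares were 3.21%, 5.3%, 1.75% and 2.95% of other inhibitory nuclei and 16.4%, 19.6%, 11.4% and 10.6% of excitatory nuclei. In CPM, excitatory nuclei stood at 42, 44.9, 33.1 and 29.3, above Vip nuclei in each library. Before thinning, the Vip nuclei held only 5, 9, 5 and 8 Neurod6 UMIs, in 5, 8, 5 and 8 nuclei. These are too few to say whether the Vip share in Kat6a-cKO is near that of excitatory nuclei. The source of the Neurod6 UMIs in Vip nuclei was not tested. The paralogue Kat6b and the complex members Meaf6 and Brd1 had log2 fold changes of 0.13, 0.03 and -0.07.

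Rspo2 did not differ detectably by genotype in Vip nuclei. Its TMM-scaled values of 358, 254, 317 and 266 CPM interleave, and the log2 fold change was -0.06 ± 0.20 (SE; edgeR adjusted p = 0.994). Of the 32 listed genes of the Wnt and R-spondin pathway, 12 were tested, none had an unadjusted p under 0.05, and 2 lay above and 3 below both Control libraries. Over all tested genes, 16.4% lay above and 17.4% below in this way. The Wnt5b values were 327, 274, 317 and 315 CPM (log2 fold change 0.08 ± 0.18, adjusted p = 0.994 in edgeR). Apc and Gsk3b, parts of the beta-catenin destruction complex, had log2 fold changes of -0.30 and 0.03.

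The 5 genes with the smallest p on each side are given as values, since none passed. On the higher side, Creb5, a CREB-family transcription factor gene, was at 15.7, 30.7, 103 and 89.7 CPM (log2 2.03 ± 0.34, edgeR adjusted p = 0.0695). It rested on 8, 17, 44 and 31 UMIs, of which the 3 richest nuclei held 62.5%, 76.5%, 54.5% and 58.1%. Fbn2, which encodes the extracellular matrix protein fibrillin-2, was at 17.7, 12.6, 54 and 119 CPM (2.46 ± 0.45, edgeR adjusted p = 0.0736). It rested on 9, 7, 23 and 41 UMIs in 4, 2, 10 and 7 nuclei. In Kat6a-cKO 1 and 2 the 3 richest nuclei held 65.2% and 63.4% of them. The cadherin gene Cdh20 was at 199, 182, 355 and 393 CPM (0.97 ± 0.18, edgeR adjusted p = 0.0764), with 64.0% of the Kat6a-cKO 2 UMIs in 3 nuclei. Efna5 and Trps1, described further on, were the others. For all 5 both Kat6a-cKO libraries were above both Control libraries, which choosing genes by smallest p favours. Over all tested genes 16.4% lay above in this way.

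On the lower side, C130073E24Rik and Nrg1 led and are described further on. Actb, the beta-actin gene, was at 187, 220, 84.5 and 113 CPM (-1.06 ± 0.23, edgeR adjusted p = 0.28). The same order of libraries was seen for Actb in the other inhibitory nuclei (140, 165, 83.8 and 102 CPM), the Sst nuclei (143, 166, 77.0 and 87.7) and Lamp5 nuclei (122, 157, 84.8 and 114) among them, and in excitatory nuclei (168, 240, 94.1 and 137). Kirrel3, a cell adhesion gene, was at 1063, 653, 540 and 347 CPM (-0.94 ± 0.23, edgeR adjusted p = 0.449), and its 3 richest nuclei held 60.8% to 85.7% of the UMIs. The transcript Gm47283 was at 526, 312, 232 and 159 CPM (-1.08 ± 0.24, edgeR adjusted p = 0.303), against 536, 274, 244 and 181 unscaled CPM in the other inhibitory nuclei.

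Some genes of GABA handling had lower values in Kat6a-cKO, and none passed. Of the 4 tested genes of GABA synthesis and transport outside the rule, 2 had an unadjusted p under 0.05 (4.97% over all genes), 3 lay below both Control libraries (17.4%) and 1 above (16.4%). The last was Slc6a11, the GABA transporter GAT-3, at 39.4, 48.7, 54.0 and 52.1 TMM-normalised CPM. Slc32a1, the vesicular GABA transporter, was at 53.2, 57.7, 25.8 and 31.8 CPM (log2 -0.95 ± 0.36, edgeR adjusted p = 0.943), resting on 27, 32, 11 and 11 counts. Abat, which breaks GABA down, had a log2 fold change of -0.54. Gad1 and Gad2, used by the rule, were at 120, 153, 107 and 173 and at 361, 452, 384 and 476 unscaled CPM, with overlapping groups. The list's median was -0.44, against -0.00 over all tested genes.

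Peptide and receptor genes of the Vip types had values on both sides. Penk was at 49.2, 64.9, 25.8 and 31.8 CPM (log2 -0.997 ± 0.36, edgeR adjusted p = 0.943), and the share of nuclei with a Penk UMI, given above, was lower in both Kat6a-cKO libraries (difference -19.7 percentage points, exact permutation p = 0.3333). At the common depth that difference was -11.2 points. Tac2 was at 57.1, 43.3, 35.2 and 14.5 CPM (-0.95 ± 0.42, edgeR adjusted p = 0.961). Cnr1 was at 1266, 1275, 885 and 1108 CPM (-0.35 ± 0.15, edgeR adjusted p = 0.961). Of the 7 tested genes of the Vip subtype list, 2 had a log2 fold change above 0 and 5 below, against 3085 and 3098 of all 6183 genes, and Penk and Tac2 had an unadjusted p under 0.05 (4.97% over all genes). The share of nuclei with a Crh UMI was higher in both Kat6a-cKO libraries, at 11.1%, 7.5%, 12.8% and 14.3% (difference 4.25 points, exact permutation p = 0.3333), on 5, 4, 8 and 7 UMIs. Htr3a, the serotonin-gated channel of CGE interneurons, was too sparse to test, with a UMI in 5, 4, 1 and 0 nuclei.

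No channel or synapse gene of the lists passed, and the shares with an unadjusted p under 0.05 are to be read against the 4.97% over all genes. Of 21 tested glutamate receptor genes none had an unadjusted p under 0.05, and the median log2 fold change was 0.01. Of 19 tested calcium, sodium and HCN channel genes none did (median -0.11, with 15 below 0). Among 23 potassium channel genes 2 did, Kcnd2 and Kcnj6, both lower. Of these 23 genes, 5 lay above and 3 below both Control libraries, where 16.4% and 17.4% of all tested genes did. Among 9 GABA-A receptor subunits 1 had an unadjusted p under 0.05, Gabrg3 (log2 -0.35 ± 0.14, edgeR adjusted p = 0.943). Of the 13 synaptic organizers Cbln2 did, at -0.65 ± 0.28 (edgeR adjusted p = 0.961). The log2 fold change of Erbb4, the neuregulin receptor of interneurons, was -0.07.

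Transcripts of cytosolic ribosomal proteins had lower summed values in Kat6a-cKO, in Vip nuclei and outside them. Of 36 tested genes none passed, 6 had an unadjusted p under 0.05, all lower (2.57% over all genes), 16 lay below both Control libraries (17.4%) and 1 above (16.4%), and the median log2 fold change was -0.39. Summed, the 93 genes gave 1654, 1832, 1353 and 1251 CPM in Vip nuclei and 1520, 1498, 1114 and 1093 CPM in the other inhibitory nuclei. The median percent of counts from mitochondrial genes was 0.0669, 0.0862, 0.0854 and 0.0546 per Vip nucleus, with overlapping groups. Of the 13 mitochondrially encoded genes 5 were tested, with a median log2 fold change of -0.54. Of these 5, 2 lay below both Control libraries (17.4% over all genes) and 0 above (16.4%). Only mt-Nd2 had an unadjusted p under 0.05 (4.97% over all genes), at -0.93 ± 0.42 (SE, edgeR adjusted p = 0.961), while mt-Cytb was at 0.06 ± 0.40. The summed level of the 13 was 174, 250, 181 and 176 CPM in Vip nuclei, where the groups overlap. It was lower in both Kat6a-cKO libraries in the other inhibitory nuclei (267, 223, 174 and 132) and in excitatory nuclei (231, 283, 185 and 169). Fth1, which encodes the ferritin heavy chain, had a log2 fold change of -0.44 ± 0.21 in Vip nuclei, and Rpl34 was too low to test. The part that the shared shift in ribosomal and Actb transcripts plays in single genes was not tested. Nor was that of the mitochondrial shift, which was seen only outside Vip nuclei.

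Whether genotype moved a gene differently in Vip nuclei than in the other inhibitory nuclei of the same libraries was tested as an interaction of class and genotype, with the library as a block. In edgeR 5 of 13682 genes passed (0.0365%), and 564 (4.12%) had an unadjusted p under 0.05. None of the 5 passed in the comparison of Vip nuclei alone. The fit gave each gene 1 dispersion (spread between libraries beyond counting error) for both classes. Yet a Vip sum held 28 to 40 nuclei and a sum of other inhibitory nuclei 491 to 627. If the Vip sums vary more, these p-values are too small, which was not tested. In all 5 the other inhibitory nuclei changed little, with log2 fold changes of Kat6a-cKO over Control between -0.26 and 0.00, none of which passed on its own. None of the 5 belongs to the Wnt pathway list, and 1, Nrg1, is on another of the gene lists, that of neuregulins and ErbB receptors.

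C130073E24Rik, a long non-coding RNA gene on chromosome 8 (50743291 to 50916997, minus strand, GENCODE M21), was at 437, 448, 231 and 185 CPM in Vip nuclei and at 479, 590, 547 and 495 in the other inhibitory nuclei. The Kat6a-cKO libraries were lower in the first and within the Control range in the second. The difference of the genotype effects was -1.09 ± 0.18 (SE, log2; edgeR adjusted p = 0.00675). It was -0.94 (edgeR adjusted p = 0.00117) without the 2 nuclei rich in Nxph1. With Sst, Lamp5 and Slc17a7 at 0 UMIs, which leaves 22, 23, 27 and 21 nuclei, it was -0.42 and did not pass (edgeR adjusted p = 1), and the fold change within Vip nuclei was -0.48. The 3 richest nuclei of Control 1 held 66.5% of that library's UMIs.

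Nrg1, which encodes neuregulin 1, a ligand of the ErbB receptors, was at 228, 322, 126 and 28 CPM in Vip nuclei against 318, 391, 326 and 257. Both Kat6a-cKO values were low, and that of Kat6a-cKO 2 rested on 10 UMIs in 6 nuclei. The difference of effects was -1.55 ± 0.27 (log2, edgeR adjusted p = 0.00719), and it was -1.56 (edgeR adjusted p = 9.4e-05) with Sst, Lamp5 and Slc17a7 at 0 UMIs. It ran from -2.88 without Kat6a-cKO replicate 1 to -1.04 without Kat6a-cKO replicate 2. Nrg1 was concentrated in few nuclei: a UMI was present in 9, 15, 15 and 6 of them, and the 3 richest held 48.1% to 73.2% of the UMIs.

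Efna5, which encodes ephrin-A5, a membrane-bound guidance ligand, was at 16.7, 17.2, 71.9 and 67.1 CPM in Vip nuclei against 373, 359, 393 and 332. Vip nuclei were thus a low class for Efna5 in both genotypes, and less so in Kat6a-cKO. The difference of effects was 2.01 ± 0.34 (log2, edgeR adjusted p = 0.00675). It rested on 9, 10, 33 and 24 UMIs in 4, 5, 11 and 6 nuclei. With at least 4 Vip UMIs required, it was 1.46 and no longer passed (edgeR adjusted p = 0.183), nor did it with Sst, Lamp5 and Slc17a7 at 0 UMIs (1.06, edgeR adjusted p = 1).

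Trps1, a zinc-finger transcription factor gene, was at 81.4, 70.7, 131 and 227 CPM against 440, 447, 420 and 453. The difference was 1.18 ± 0.24 (log2, edgeR adjusted p = 0.0457). It did not pass without Control replicate 2 (1.07, edgeR adjusted p = 0.0895) or without Kat6a-cKO replicate 2 (0.81, edgeR adjusted p = 0.672), where 1 nucleus held 34 of the 81 UMIs, or with Sst, Lamp5 and Slc17a7 at 0 UMIs (0.76, edgeR adjusted p = 1).

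Ntng1, which encodes the axonal adhesion protein netrin-G1, was at 16.7, 462, 6.54 and 30.8 CPM against 331, 517, 450 and 388. Its difference of -3.49 ± 0.68 (log2, edgeR adjusted p = 0.0365) came from Control 2 alone, where 3 nuclei held 96.6% of 268 UMIs. Those nuclei had 64, 119 and 76 Ntng1 UMIs with 2, 4 and 4 of Vip, and each was also rich in Col25a1, with 158, 28 and 113 UMIs. Without Control replicate 2 the difference was -0.33 and did not pass (edgeR adjusted p = 1).

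**Figure D4:**
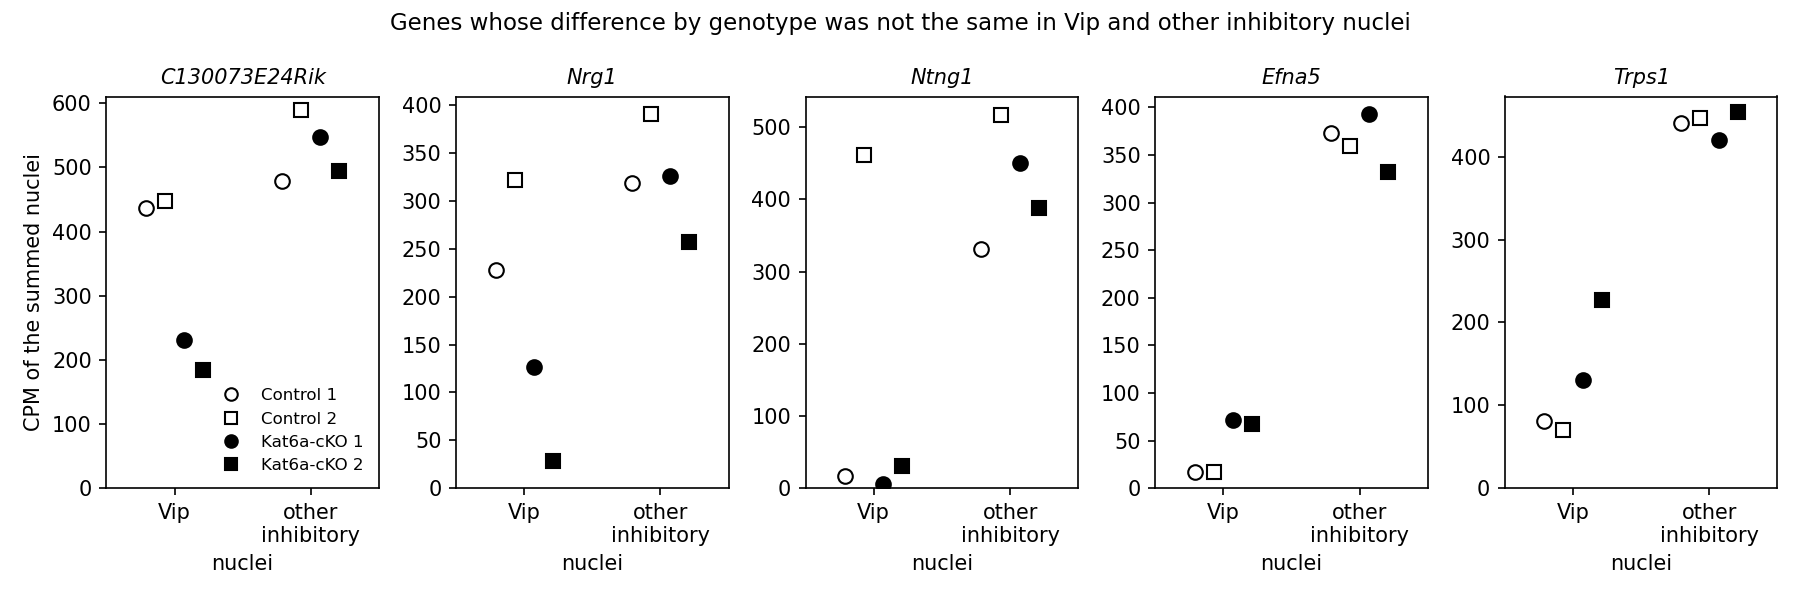
The 5 genes whose difference between genotypes was not the same in Vip and in other inhibitory nuclei, in CPM of the summed nuclei (y axes, each from 0), with 1 point per library, open for Control and filled for Kat6a-cKO. In Vip nuclei the filled points lie below the open ones for C130073E24Rik and Nrg1 and above them for Efna5 and Trps1, while for Ntng1 a single Control library at 462 CPM stands apart.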

How the data were processed

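The authors deposited raw counts (UMIs per gene and barcode, whole numbers) for all barcodes of 4 libraries made with a 10x Genomics kit, per the labels. The submitters' processing notes name the genome build mm10 and Seurat 4.0.1 without their role. The aligner, annotation and strand of counting are not given in the sources used here. Symbols were given to 55154 of 55422 gene IDs by their Ensembl stem from GENCODE M21. Library totals were 186897245, 183440076, 177249737 and 171323466 counts. Intervals and upper limits reflect error of counting alone.

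Members were selected by the stated rule, and counts were summed per library and class. Called doublets were kept in the main sums and left out in an alternative (Scrublet in scanpy 1.11.5, expected rate 0.06). Sst nuclei had at least 2 Sst UMIs and at most 1 of Vip, Lamp5 and Slc17a7, and Lamp5 nuclei the same with Lamp5 and Sst exchanged. Excitatory nuclei had at least 3 Slc17a7 UMIs and none of Gad1 or Gad2, and 500 per library were thinned. Tests used edgeR 4.0.16 in R 4.3.3 (glmQLFit, glmQLFTest, TMM, filterByExpr, Benjamini-Hochberg threshold 0.05), checked on simulated counts, and DESeq2 1.42.0 as an alternative. For the interaction, the simulated counts had the same dispersion in both classes, so they could not check that assumption of the fit. The 7 genes of the rule were not tested between classes. CPM is unscaled unless TMM is named or a log2 fold change between genotypes stands beside it.

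The members and the gene lists were chosen with earlier results of these data known. Genes named are Kat6a, the Cre entry, Neurod6, Gm3279, Rspo2, Actb, Rpl34, mt-Cytb and Fth1, genes past the threshold, the 5 each way of smallest p, the 4 most abundant of each list and, for levels, the 15 highest and 8 lowest ratios over other inhibitory nuclei in the library nearest 1, with 5 CPM added, from a mean of 20 CPM. Calb2 and Cck nuclei were compared over genes with at least 50 counts. Alternatives were other size factors, no filter, a replicate block, DESeq2, stricter limits on depth, Vip and the excluded genes, thinning, and leaving out each library.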

Additional observations from a re-analysis of the deposited data

Results flagged for a closer look

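For 5 genes the effect of genotype differed between Vip nuclei and the other inhibitory nuclei of the same libraries, by edgeR's interaction test. That test assumes 1 dispersion per gene for both classes. The differences of the log2 fold changes, Vip minus other inhibitory, were -1.09 for C130073E24Rik, 2.01 for Efna5, -1.55 for Nrg1, -3.49 for Ntng1 and 1.18 for Trps1. The Ntng1 value moved to -0.33 without Control replicate 2, whose 3 richest nuclei held 96.6% of its Ntng1 UMIs. C130073E24Rik, Efna5 and Trps1 lost their calls with Sst, Lamp5 and Slc17a7 at 0 UMIs, at -0.42, 1.06 and 0.76. Nrg1 passed under each setting tried, from -2.88 to -1.04; in the fits that leave out a library, 1 genotype has a single library, which is assumed to vary like the others.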

How the results depend on the processing

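Genes differing by genotype in Vip nuclei numbered 0 in the main comparison and with DESeq2, 19 with no filter on low counts, 2 without called doublets, and 0 to 34 when 1 library was left out (34 and 24 when Control replicate 1 or 2 was dropped, 1 and 0 when Kat6a-cKO replicate 1 or 2 was). Leaving out the nuclei of 10 or more Nxph1 UMIs, chosen after seeing the data, gave 4. With the replicate block the count was 36, but deviations of libraries with the same number correlated at only 0.08 over 3737 genes, so the numbers were not shown to pair the libraries. Genes whose genotype effect differed from the other inhibitory nuclei numbered 5, against 21 with no filter, 14 with Lamp5 nuclei as the comparison (4 shared with the 5), 20 to 27 when 1 library was left out (3 to 5 shared), and, chosen after seeing the data, 8 with Sst, Lamp5 and Slc17a7 at 0 UMIs (2 shared), 31 at 4 or more Vip UMIs (4 shared) and 17 without the Nxph1-rich nuclei (5 shared). Fits without a library leave 1 genotype with a single library, assumed to vary like the others. The cause of these moves was not tested, other than that leaving out a library or nuclei changes which genes are tested. Of the 5, Ntng1 no longer passed against Lamp5 nuclei (-2.15). Some log2 fold changes that did not pass changed sign. Rspo2 was 0.23 with Sst, Lamp5 and Slc17a7 at 0 UMIs, 0.022 after thinning to 5000 UMIs and -0.30 to 0.20 without a library. The mt-Cytb value, 0.06, was -0.026 with those genes at 0 UMIs and -0.32 to 0.59 without a library. Kat6a was -0.38 at 4 or more Vip UMIs and -0.37 with those genes at 0 UMIs, and ran from -0.19 to 0.023 and Ntng1 from -5.12 to 0.063 without a library. Differences in the share of nuclei with a UMI changed sign for Cck (-1.36 percentage points at 2 or more UMIs, -4.29 to 15.7 without a library), Tac2 (2.39 after thinning, -7.81 to 4.96 without a library), Npy (1.79 at 2 or more UMIs), Chat (-1.22 after thinning) and Calb2 (-2.66 to 6.13 without a library). With 28 to 40 Vip nuclei in a library, genes carried by a few nuclei cannot be measured closely.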

Other observations

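Transcripts of several other peptides were at or near 0 in the Vip nuclei. Adcyap1, Trh and Grp, which encode PACAP, thyrotropin-releasing hormone and gastrin-releasing peptide, had no count in any library. Npy was at 11.1, 6.9, 4.36 and 14 CPM (2.96 in Kat6a-cKO 2 without 1 nucleus that held 4 of its 5 UMIs), against 49.7, 51.8, 24.7 and 42.2 in the other inhibitory nuclei. Slc17a8, the vesicular glutamate transporter of some Cck basket cells, had a UMI in 3 Vip nuclei, all of Control 2, and stood at 11.6, 22.9, 11.6 and 33.2 CPM in the other inhibitory nuclei.

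Fosl2, an AP-1 family gene, was at 24.1, 32.8, 28.3 and 25.2 CPM in Vip nuclei and at 4.21, 8.76, 6.62 and 7.87 CPM in the other inhibitory nuclei.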
